A study of Mus musculus with 1646 samples.

Results

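Cluster 5 of the mouse colon made up 32.5% of 1307 single fibroblasts and 25.8% of 1646 colon cells in all. Its members were taken from the deposited annotation, as every cell whose label gives cluster 5. The group goes by the name of mucosal fibroblasts from the base to the middle of the crypt, but the labels hold only the cluster's number, and no value analysed here measures where a cell lay in the tissue. All cells came from male C57Bl6/J mice aged 10 to 20 weeks and were sorted as CD31-negative cells into 384-well plates. They were sequenced with SmartSeq2, which reads full-length cDNA of single cells without molecular identifiers. The mice belonged to 4 reporter lines, and the labels give no further allele or treatment for any of them. PdgfraGFP mice carry a nuclear H2BGFP knocked into the *Pdgfra* gene, whereas PdgfrbGFP, Acta2GFP and Cspg4dsRED mice carry transgenes in which regulatory sequence of the named gene drives a fluorescent protein. The tissue of Acta2GFP mice was also treated with elastase, so line, reporter and enzyme cannot be told apart. PdgfrbGFP mice gave 220 of the cluster 5 cells, with 81, 110, 18 and 11 on 4 plates that are numbered 1 to 4 here. Acta2GFP mice gave 36 and 92 cells on plates 1 and 2 of that line, PdgfraGFP mice 58 and 6 cells on 2 plates, and Cspg4dsRED mice 13 cells on 1 plate. Mice are not named in the labels. A line was therefore taken as 1 sample, plates may share mice, and any p-value over plates measures only the spread between these plates.

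Fibroblasts of the colon mucosa form a layer around the crypts, where they deposit matrix and send WNT, BMP, R-spondin and hedgehog-dependent signals to the epithelium. Stromal cells near the crypt base are known for the surface glycoprotein CD34 and for secreted antagonists of BMPs, which together with WNT ligands and R-spondins keep the epithelial stem cells in place. Sub-epithelial cells near the lumen are known instead for high PDGFRA, BMP ligands and WNT5A. The names given to the fibroblast clusters 7, 5, 1, 6 and 2 run in this order from the base of the crypt to its apex.

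Among the fibroblasts of each line, 38.5% were cluster 5 cells in PdgfrbGFP mice (220 of 571, exact Clopper-Pearson 95% interval 34.5 to 42.7). The share was 26.5% in Acta2GFP mice (22.6 to 30.7), 28.4% in PdgfraGFP mice (22.7 to 34.8) and 46.4% in Cspg4dsRED mice (13 of 28, 27.5 to 66.1). The sorting gates differed between lines, the intervals cover counting error only, and the shares were not tested. The 2 plates of the PdgfraGFP line stood apart from each other, with 37.7% (58 cells, 29.99 to 45.8) on plate 1 and 8.45% (6 of 71 cells, 3.17 to 17.5) on plate 2. Counts on genes ranged from 47598 to 1494292 per cluster 5 cell, with a median of 267078 against 311916 in cluster 7 and 229006 in cluster 1. The 13 cells of the Cspg4dsRED line were the shallowest, with a median of 113721 counts, and no other fibroblast cluster had 10 cells of this line.

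Levels are counts per cell scaled to 500000, spike-ins left out, averaged within a line. Means ± SD are then over lines, each with 10 or more cells of the cluster. They depend on transcript length and are compared between clusters, not between genes. To compare clusters, raw counts were summed per cluster and line and fitted together with edgeR, and fold changes are given with the standard error (SE) of the fit. A gene was called higher or lower in cluster 5 when its log2 fold change was at least 1 in size and every line with both clusters moved the same way. The clusters were drawn from these same counts, so the calls describe the groups and carry no p-value. On simulated counts with the spread of these sums, the rule found most genes given a large change, but it also called unchanged genes about as often as it called genes against cluster 7 here. A count of calls is therefore read only beside the share called over all genes. Lines with both clusters numbered 3 for clusters 7, 1 and 2, and 2 for cluster 6.

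The markers set for cluster 5 were present, but none was particular to it. *Cd34* (chromosome 1, 194938819 to 194961279 of GRCm38) had levels of 981, 1174, 878 and 1072 in the PdgfrbGFP, Acta2GFP, PdgfraGFP and Cspg4dsRED line. Line values of cluster 5 follow this order from here on, and those of clusters 7 and 1 the order of the first 3. Its mean was 1026 ± 126.3 (n = 4 lines), below cluster 7 in each of 3 lines (1293 ± 246.7), above cluster 1 in each of 3 lines (595 ± 101.3), and far above clusters 6 and 2 (30.2 and 41.3). *Col8a1*, a chain of the short-chain collagen VIII (chromosome 16, 57624258 to 57754737), had levels of 244.2, 246.4, 232.5 and 156.6. The mean of 220 ± 42.6 lay between that of cluster 7 (367.5 ± 13.8) and that of cluster 1 (42.1 ± 17.7), and the lines of these 3 clusters did not overlap. *Pdgfra*, the receptor that marks most fibroblasts (chromosome 5, 75152292 to 75198215), had levels of 262.5, 268.8, 176.1 and 224.4. Its mean of 232.9 ± 42.7 overlapped with those of clusters 7 (204.6 ± 27.02) and 1 (190.8 ± 37.5) and was below clusters 6 (607) and 2 (1042 ± 260.9). The 3 markers therefore set cluster 5 apart from clusters 6 and 2, *Col8a1* also from cluster 1, and none of them was called against cluster 7.

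**Figure D1:**
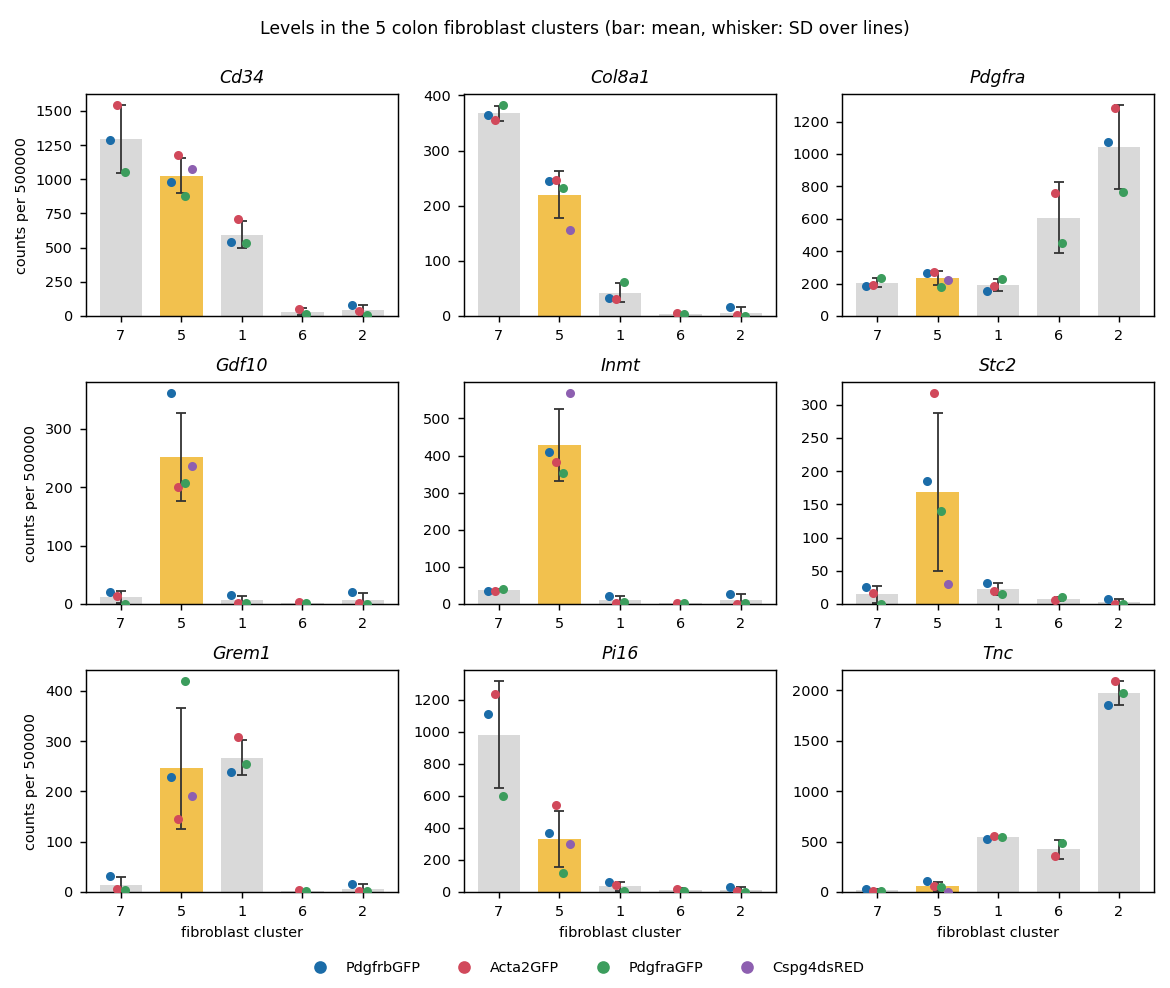
Levels (counts per 500000, y axis, linear from 0) of 9 genes in clusters 7, 5, 1, 6 and 2 (x axis). Bars are means over lines, error bars are SD and points are single lines. *Gdf10* and *Inmt* are high in cluster 5 in all 4 lines, whereas *Cd34* and *Col8a1* step down from cluster 7 to cluster 1.

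The defining markers of most other cells that a CD31-negative gate could still hold were at or near 0 in cluster 5. Before clustering, the authors had removed cells with clear endothelial or immune signatures, and cells that expressed neither *Pdgfra* nor *Pdgfrb*. Low values of such markers were therefore partly fixed in advance and do not measure the purity of the gate. *Ptprc* of leukocytes had a mean level of 0.179, *Epcam* of epithelium 0.492, *Cdh5* of endothelium 0.634 and *Kit* of interstitial cells of Cajal 0.496, and *Msln* of mesothelium had no count. Summed over 12 genes each, immune markers reached 2.55 to 47.4 per line and epithelial markers 9.30 to 46.4. The 10 markers of enteric glia and neurons summed to 4.87 to 10.98, the 4 of interstitial cells of Cajal to 10.4 to 60.8 and the 6 of mesothelium to 2.98 to 17.4. Some members of these lists were called higher than in cluster 7, namely *Ano1* and *Etv1* of the Cajal list, *Krt8* of the epithelial list, *Rgs5*, *Abcc9* and *Cspg4* of the mural list and *Wt1* of the mesothelial list. Of these only *Wt1* was called higher than in each of the other 4 clusters, at a mean level of 5.76. *Erbb3*, *Ret* and *Uchl1* of the glial and neuronal list were called higher than in clusters 2 and 6, and *Uchl1* also than in cluster 1. The 12 endothelial markers summed to 145.3 to 196.97, of which *Tek* alone had 110 ± 24.6, a gene that was higher still in cluster 7 (180 ± 43.2). The 12 mural cell markers summed to 148.7 to 286.6 per line, between clusters 7 (73.95 to 184.2) and 1 (220.5 to 464.7), with 5 of 12 genes at a level of 20 or more. The part of these levels in the results below was not tested.

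Of 18924 genes tested, 1.05% were called higher in cluster 5 than in each of the other 4 fibroblast clusters, and 14 (0.074%) lower than in each. Most of the higher ones stayed below a level of 20 in cluster 5, so the account keeps to the 36 at or above it. For this limit, here and below, the level was the mean over the lines that had both clusters of a comparison, which leaves out the Cspg4dsRED line. *Gdf10*, a ligand of the TGF-β superfamily related to BMPs (chromosome 14, 33923587 to 33937983), led by the smallest of its 4 fold changes. Its levels were 361.1, 200.9, 206.7 and 236.9, with a mean of 251.4 ± 74.8. The means of clusters 7, 1, 6 and 2 were 11.7 ± 10.02, 6.27 ± 7.20, 2.38 and 7.38 ± 11.7, and the lowest line of cluster 5 was above the highest line of any of them. The log2 fold change was 4.84 ± 1.39 (SE) against cluster 7 and 5.62 ± 1.44 against cluster 1. *Gdf6*, another BMP family ligand, had lower levels of 15.9, 21.5 and 38.99 in these 3 lines, no count in the 13 Cspg4dsRED cells, and a mean of at most 2.54 in any other cluster.

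*Inmt*, which encodes a methyltransferase of indoleamines (chromosome 6, 55170626 to 55175043), had levels of 408.3, 381.2, 352.6 and 569 and a mean of 427.7 ± 96.7. It reached 37.2 ± 3.04 in cluster 7 and at most 9.92 in the other clusters, a log2 fold change of 3.15 ± 0.98 against cluster 7. *Stc2*, a secreted stanniocalcin (chromosome 11, 31357307 to 31370074), had levels of 185.7, 317.9 and 140, but 30.3 in Cspg4dsRED cells, against means of 14.3 ± 12.8 in cluster 7 and 22.3 ± 8.73 in cluster 1. The Cspg4dsRED value of *Stc2* lay within the range of cluster 1 (15.3 to 32.1). *Ptgir*, the prostacyclin receptor, had 54.6, 61.8, 53.8 and 55.8 against 8.23 ± 7.64 in cluster 7 and 5.16 ± 1.38 in cluster 1. For this gene a level of 100 was also reached by 13.6% of mural cells, against 18.6% of cluster 5 cells.

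The further genes among the 10 leading ones were *Sult5a1*, a sulfotransferase (27.4 ± 15.96), *Kcne4*, an accessory subunit of potassium channels (48.8 ± 31.9 in cluster 5, but at a level of 100 in 31.6% of mural cells against 10.8% of cluster 5 cells), *Dner*, a transmembrane protein with EGF repeats (69.8 ± 13.9), *Ifi207*, an interferon-inducible gene (34.3 ± 12.3) and *Cpxm1*, of the carboxypeptidase family (86.5 ± 54.1). Their smallest log2 fold changes of the 4 comparisons were 1.74 to 2.52, each with an SE of 0.99 to 1.36. Of the 36 genes, 13 had a fold change of at least 2 SE in all 4 comparisons. With plates as samples 9 of the 36 were still highest, and 6, namely *Gdf10*, *Inmt*, *Stc2*, *Boc*, *Dpep1* and *Gas1*, were so under every alternative fit, although the fold change of *Gas1* was not at least 2 SE in all 4 comparisons. *Dpep1*, a membrane dipeptidase named here after its values were seen, had a mean level of 515 ± 87.8 against 222.4 ± 38.6 in cluster 7 and 63.5 ± 35.1 in cluster 1. *Penk*, the precursor of enkephalins, was among the 9 with 508 ± 46.2 against 200.6 ± 49.02 and 34.8 ± 20.2, as was *Adcyap1r1*, the receptor of the neuropeptide PACAP, with 115.8 ± 55.1 against 18.5 ± 10.95 and 48.8 ± 16.95. *Penk* and *Adcyap1r1* were named after their values were seen as well, and each lost a call when a line was left out (*Penk* against cluster 7 without Acta2GFP, log2 fold change 0.86, or without PdgfrbGFP, 0.97, and *Adcyap1r1* against cluster 1 without PdgfraGFP, 0.82, or without PdgfrbGFP, 0.71).

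The promoters of *Gdf10* and *Inmt* are shown because both genes were called highest in cluster 5 by a wide margin and varied together between its cells. They are the 250 bases before and 50 after the annotated start, on the gene's strand, from RefSeq (GRCm38.p6), at chr14:33923337-33923636 (plus strand) and chr6:55174941-55175240 (minus strand). The span of *Inmt* given earlier is from another annotation. It begins at 55175043 on the minus strand, upstream of the start used for this window, so distances to the start differ between the annotations. Capitals mark TATAAA, searched on both strands.
Gdf10: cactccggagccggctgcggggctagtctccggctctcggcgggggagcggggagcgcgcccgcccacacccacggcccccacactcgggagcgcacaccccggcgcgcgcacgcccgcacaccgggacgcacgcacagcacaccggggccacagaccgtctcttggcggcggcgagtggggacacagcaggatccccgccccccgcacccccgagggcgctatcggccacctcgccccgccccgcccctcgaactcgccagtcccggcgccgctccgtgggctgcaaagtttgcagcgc
Inmt: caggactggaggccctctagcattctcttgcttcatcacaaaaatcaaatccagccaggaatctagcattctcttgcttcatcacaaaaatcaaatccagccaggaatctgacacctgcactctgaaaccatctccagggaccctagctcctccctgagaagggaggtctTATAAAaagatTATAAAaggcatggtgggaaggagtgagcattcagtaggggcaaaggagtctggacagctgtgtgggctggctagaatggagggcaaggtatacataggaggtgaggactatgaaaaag
The *Inmt* window holds the motif and the *Gdf10* window does not, and 13.6% of all 32851 promoters of the same length hold it. A match is of letters only and marks no site. For 24 of the 36 genes a promoter was listed, too few to describe the whole group.

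**Figure D2:**
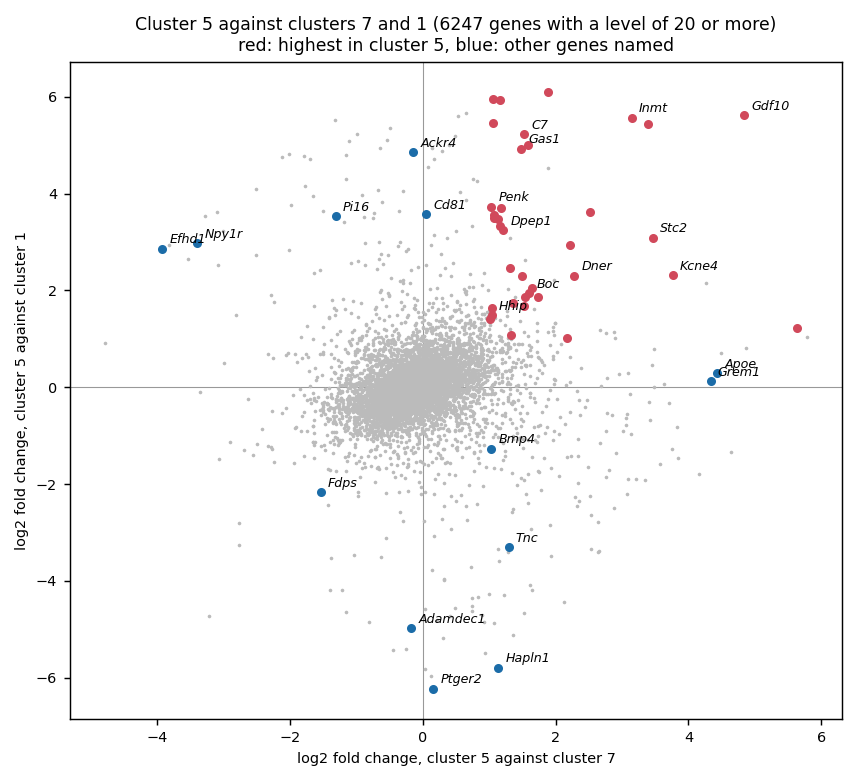
Fitted log2 fold change of cluster 5 against cluster 7 (x axis) and against cluster 1 (y axis) for the 6247 genes plotted, with the 36 genes called highest in cluster 5 at a level of at least 20 in red. The 2 comparisons share the cluster 5 sums, so the axes are not independent. *Gdf10* lies at 4.84 and 5.62 and *Inmt* at 3.15 and 5.57, whereas *Grem1* lies at 4.33 against cluster 7 and near 0 against cluster 1.

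Against cluster 7, the group named for the crypt base, cluster 5 was called higher for 1759 genes (9.3% of 18924) and lower for 757 (4%). Most of these had low levels, and with a level of at least 20 in the higher cluster 4.12% of 5826 genes were called higher and 4.94% lower. Of the 18 genes on the list of the CD34+ stroma, 2 were called higher in cluster 5 and 4 lower, with a median log2 fold change of -0.58 against 0.037 over all genes.

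*Grem1*, a secreted antagonist of BMPs, had levels of 228.98, 146.04, 420 and 191.3 in the lines of cluster 5. Cluster 7 had 31.5, 5.98 and 3.63 in its 3 lines, so the groups did not overlap, and the log2 fold change was 4.33 ± 1.02. The level of *Grem1* in cluster 1 (267.4 ± 35.6) overlapped with that in cluster 5 (246.5 ± 120). *Pi16*, a secreted peptidase inhibitor that marks fibroblasts of many tissues, had 370, 541, 116.7 and 299.4 in cluster 5 and 1110, 1238 and 602 in cluster 7, a log2 fold change of -1.31 ± 0.96. *Dpp4*, a membrane peptidase, had 5.14 ± 4.93 against 37.3 ± 3.60, *Has1*, a hyaluronan synthase, 43.5 ± 29.7 against 96.3 ± 23.6, and the semaphorin *Sema3c* 191.7 ± 68.2 against 528 ± 93.9. The call of *Has1* was lost without the PdgfraGFP line (log2 fold change -0.62). *Cd81*, a tetraspanin, was close in both clusters (577 ± 146.7 against 580 ± 58.4, log2 fold change 0.05 ± 0.27), nor was *Ackr4*, a scavenging receptor of chemokines, called (211.8 ± 130.7 against 230 ± 5.42).

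By the size of the fold change among genes at a level of at least 20, the genes called higher than in cluster 7 were led by *Gpnmb*, a transmembrane glycoprotein, *Art4*, *Steap4*, a metalloreductase, *Gdf10* and *Apoe*, the apolipoprotein. *Apoe* had 271.1, 132.7 and 155.8 in 3 lines and 729 in Cspg4dsRED cells, against 31.9, 6.52 and 1.05 in cluster 7. *Gpnmb* had 82.7, 22.9, 37.1 and 175.6 against at most 4.03 in any line of cluster 7. For both genes the Cspg4dsRED line had the highest value, and no line of cluster 5 overlapped with cluster 7. The genes called lower were led by *Kcnk5*, a potassium channel, *Efhd1*, a mitochondrial calcium-binding protein, *Efhd1os*, *Mcf2l*, a guanine nucleotide exchange factor, and *Npy1r*, a receptor of neuropeptide Y. *Efhd1* had levels of 15.4, 10.2, 9.11 and 1.36 in cluster 5 against 185.7, 169.3 and 156.4 in cluster 7 (log2 fold change -3.92 ± 0.97). *Efhd1os* overlaps *Efhd1*, and no source says that reads were counted by strand. Its fold change cannot be told apart from that of *Efhd1*.

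Against cluster 1, the group named for the middle of the crypt, 1328 genes were called higher in cluster 5 (7.02%) and 1472 lower (7.78%), and, of 5763 genes at a level of at least 20, 5.4% higher and 5.1% lower. Of the 18 genes of the CD34+ stroma, 13 were called higher in cluster 5 and none lower, with a median log2 fold change of 2.23 against -0.048 over all genes. The exceptions were *Cd34*, *Ly6a*, *Ly6c1*, *Grem1* and *Sema3e*. *Cd81* had 577, 631, 376.04 and 723 in the 4 lines of cluster 5 and 61.7, 53.6 and 29.4 in cluster 1, a log2 fold change of 3.57 ± 0.32. *Ackr4* had 202.2, 337.1, 273.9 and 34.1 against 13.6, 9.06 and 3.67, and *Pi16* was called higher as well (35.1 ± 28.8 in cluster 1). *Ebf1*, a transcription factor of stromal and B cells, had 133.9 ± 42.8 against 5.70 ± 3.05, and *Pcolce2*, which enhances procollagen processing, 244.4 ± 90.5 against 7.96 ± 5.30. None of the lines of the 2 clusters overlapped for these 5 genes.

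By the same rule, the genes called higher than in cluster 1 were led by *Ifi207*, *Angptl1*, the matrix gene *Vit*, *Hoxb3os* and *Gdf10*. *Vit* had 90.9, 32.5, 103.4 and 23.3 in cluster 5 and at most 4.09 in any line of cluster 1. The genes called lower were led by *Ptger2*, the EP2 receptor of prostaglandin E2, *Col6a5*, *Syt13*, a synaptotagmin, *Hapln1*, a link protein of hyaluronan, and *Hcar2*, a receptor of hydroxylated fatty acids. *Ptger2* had 1.42, 0.463, 0.283 and 0 in cluster 5 and 36.1, 35.1 and 44.7 in cluster 1 (log2 fold change -6.23 ± 0.73). *Adamdec1*, a secreted metalloprotease-like gene of the gut mucosa named here after its values were seen, separated the clusters as well, with 164.97, 53.2, 68.2 and 2.19 in cluster 5 against 2301, 2180 and 1896 in cluster 1.

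Genes of the sub-epithelial list were lower in cluster 5 than in clusters 2 and 6. All 18 were called lower in cluster 5 than in cluster 2 (9.99% of all genes were called lower in this comparison and 15.2% higher), and 12 of 18 lower than in cluster 6 (10.5% of all genes lower and 25.2% higher). The call of *F3* against cluster 2 was lost under 6 alternatives, with log2 fold changes of -0.99 to -0.90, among them those without the Acta2GFP line (-0.96) and without the Cspg4dsRED line (-0.94). *Tnc*, the matrix glycoprotein tenascin C, had 109.4, 59.4, 48.4 and 0.870 in the 4 lines of cluster 5, a mean of 54.5 ± 44.5. The means of clusters 7, 1, 6 and 2 were 16.9 ± 13.3, 542 ± 12.2, 421.4 and 1972 ± 120.8. *Tnc* and *Wnt5a* were called higher than in cluster 7, *Tnc* no longer without the PdgfraGFP line (log2 fold change 0.97). Of the 18 genes, 2 were called higher and 7 lower than in cluster 1 (7.02% and 7.78% over all genes). *F3*, the tissue factor, went against the order of the list, with 186.3 ± 48.9 in cluster 5 against 38.97 ± 6.38 in cluster 1 (log2 fold change 2.30 ± 0.27). *Foxl1*, a transcription factor of sub-epithelial telocytes, had 0.661 ± 0.714 in cluster 5 and 145.8 ± 30.4 in cluster 2.

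Against cluster 2, at a level of at least 20, 779 genes were called higher in cluster 5 (12.8% of 6079) and 890 lower (14.6%). The genes called higher were led by *C7*, *Flrt3*, *AW551984*, *Nova1* and *Phgdh*, and those called lower by *8430436N08Rik*, *Cd300lb*, *Cd300e*, *Trpa1* and *Gdpd2*. *Trpa1*, an ion channel that senses irritants, had 0.172 ± 0.279 in cluster 5 and 119.4 ± 2.97 in cluster 2. Against cluster 6, which had only 45 cells and 2 lines, 978 were called higher (15.1% of 6489) and 1100 lower (17%) at this level.

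Among 23 WNT ligands and R-spondins, 13 were tested. *Wnt2* was called lower than in cluster 7, with 11.8, 21.4, 3.49 and 5.79 in cluster 5 against 63.8, 90.9 and 118.2 (log2 fold change -2.43 ± 0.95). *Wnt2b* had 33.4 ± 29.6 in cluster 5, overlapped with cluster 7 (30.2 ± 24.2), and was called lower than in cluster 1 (99.1 ± 31.8). *Wnt4* had 0.458 ± 0.384 in cluster 5 and was called lower than in cluster 1 (19.8 ± 3.85), cluster 6 and cluster 2. *Wnt5a*, with 26.7 ± 18.1, was called higher than in clusters 7 and 1 and lower than in clusters 6 and 2 (452.04 ± 47.5). The call against cluster 7 was lost without the Acta2GFP line (log2 fold change 0.97) or the PdgfrbGFP line (0.69), and that against cluster 1 without the PdgfraGFP line (0.98). R-spondins amplify WNT signals, and of these *Rspo3* had 23.04, 24.3, 19.2 and 7.64 in cluster 5, close to clusters 7 (18.4 ± 11.4) and 1 (15.5 ± 9.16). *Rspo1* had 13.8, 1.97, 14.6 and 32.9 in cluster 5 against 0.220, 0.00863 and 0.138 in cluster 7 and 0.776, 2.90 and 2.45 in cluster 1. It was called higher than in cluster 7 and not than in cluster 1, where the Acta2GFP line went the other way. Over the list, 3 genes were called higher and 2 lower against cluster 7 (9.3% and 4% over all genes), and 3 higher and 3 lower against cluster 1 (7.02% and 7.78% over all genes).

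The secreted WNT inhibitor *Sfrp1* took an intermediate level in cluster 5, with 300.9, 321.2, 142.8 and 346.5 against 105.03, 79.4 and 112.96 in cluster 7 and 610, 486 and 574 in cluster 1. It was called higher than in cluster 7 (log2 fold change 1.40 ± 0.53), and the difference from cluster 1 of -0.84 ± 0.50 did not reach the fold set for a call. *Frzb*, another inhibitor of this family, was called lower than in cluster 1 (3.04 ± 4.10 against 69.7 ± 11.2), and so was *Sfrp2* (0.212 ± 0.356 against 11.6 ± 7.20). Of 15 WNT receptor genes tested, 2 were called higher and none lower than in cluster 7, near the 9.3% and 4% over all genes, and 3 higher and 2 lower than in cluster 1 (7.02% and 7.78% over all genes).

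BMP signals oppose WNT signals along the crypt. *Bmp4* had 253.3, 379.4, 283.5 and 232.8 in the 4 lines of cluster 5, above 164.7, 135.6 and 122.7 in cluster 7 (log2 fold change 1.03 ± 0.20) and below 776, 860 and 786 in cluster 1 (-1.27 ± 0.20). The lines of the 3 clusters did not overlap, so that the level of *Bmp4* in cluster 5 lay between those of the neighbouring clusters. The call against cluster 7 was lost without the Acta2GFP line (log2 fold change 0.80). *Bmp5* (8.78 ± 9.03 against 163.01 ± 8.56) and *Bmp7* (1.62 ± 2.41 against 38.7 ± 25.1) were called lower than in cluster 1, and neither was called against cluster 7. Of 11 BMP ligand genes tested, *Gdf10* and *Gdf6* were the 2 called highest in cluster 5 (1.05% over all genes). Against cluster 7, 3 of the ligands were called higher and 1 lower (9.3% and 4% over all genes). Against cluster 1, 2 were called higher and 4 lower (7.02% and 7.78%). Against cluster 2, 2 were called higher and 5 lower (15.2% and 9.99%), and against cluster 6 also 2 higher and 5 lower (25.2% and 10.5%). Among 14 antagonists of BMPs and activins, 3 were called higher than in cluster 7 (9.3% over all genes) and 5 higher than in cluster 1 (7.02%), and none was called lower in either comparison. Against cluster 2, 6 were called higher and 4 lower (15.2% and 9.99% over all genes), and against cluster 6, 5 higher and 3 lower (25.2% and 10.5%). *Chrdl1*, a chordin-like antagonist, was called highest in cluster 5 but at a level of 9.05 ± 6.46. Its calls against clusters 7 and 1 were lost with 3 cells enough for a sum, although the folds kept their size (log2 fold changes 3.93 and 3.535). With plates as samples those against clusters 7, 1 and 2 were lost (2.44, 2.05 and 6.31). *Smoc2* had 60.7 ± 41.6, was called higher than in cluster 1 (1.98 ± 1.81) and was not called against cluster 7 (36.7 ± 4.97).

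Hedgehog ligands come from the epithelium and act on stromal receptors. Of 11 genes of this pathway tested, 4 were called higher in cluster 5 than in each of the other 4 clusters, namely the co-receptors *Boc*, *Gas1* and *Cdon* and the decoy receptor *Hhip* (1.05% over all genes). *Boc* had 116.2, 104.5, 92.3 and 99.7 in cluster 5 against 55.4, 40.4 and 11.4 in cluster 7 and 29.7, 32.4 and 23.2 in cluster 1. *Gas1* had 202.8, 130.8, 150 and 242.8 against 76.9, 62.3 and 34.8 in cluster 7 and at most 8.76 in any line of cluster 1. *Hhip* had 61.8, 111.6, 60.3 and 29.5, of which the Cspg4dsRED value lay within the range of clusters 7 (13.2 to 29.8) and 1 (21.3 to 31.1), and its call against cluster 7 was lost without the Acta2GFP line (log2 fold change 0.55). *Cdon* had a low level of 4.74 ± 3.63, and its call against cluster 7 (log2 fold change 5.56) was lost with 3 cells enough for a sum (0.57) and with plates as samples (1.76). *Ptch1*, the receptor that is also a target of the pathway, had 50.99, 97.6, 66.4 and 41.4 in cluster 5 and was called lower than in cluster 1 (148.3 ± 44.3), cluster 6 (248.9) and cluster 2 (221.2 ± 57.7). *Gli1*, a transcription factor and target of the pathway, had 38.4 ± 9.57 and was called against none of the 4 clusters.

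Of 16 complement genes tested, 5 were called higher than in cluster 7 (9.3% over all genes), 5 higher than in cluster 1 (7.02%) and 8 higher than in cluster 2 (15.2%), with none lower. Against cluster 6, 10 were called higher (25.2%) and 2 lower (10.5%), namely *Cfp* and *Masp1*. Levels within the list ran from near 0 in cluster 5, as for *Cfd*, *Cfi* and *Cfp*, to the level of *C3*. *C3*, the central component, had 1454, 1323 and 1270 in 3 lines and 2573 in Cspg4dsRED cells. It was not called against cluster 7 (1519, 1563 and 1196) and was called higher than in cluster 1 (227.9, 256.2 and 185.7, log2 fold change 2.93 ± 0.60). *C7*, a component of the membrane attack complex, had 103.3, 77.98, 92.5 and 357.9, called higher than in clusters 7 (53.8 ± 7.63), 1 (3.95 ± 1.77), 6 and 2. For both genes the 13 Cspg4dsRED cells had the highest level. Without this line the log2 fold change of *C7* against cluster 7 was 0.85, under the size set for a call, whereas that against cluster 1 kept its call.

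Chemokines and cytokines were called in both directions. *Cxcl12*, which attracts leukocytes and progenitors, had 379.5, 370, 340.6 and 757 in cluster 5, above cluster 7 (132.5 ± 54.1, log2 fold change 1.65 ± 0.37) and below cluster 1 (1388 ± 318.96, -1.43 ± 0.35). *Il33*, an alarmin, had 221.8, 215.2, 183.3 and 203.8, was not called against cluster 7 (236.1 ± 44.6) and was called higher than in cluster 1 (52.4 ± 37.95). *Ccl2* and *Ccl7*, which recruit monocytes, were called lower than in cluster 7 (9.51 ± 7.46 against 51.03 ± 21.02, and 18.96 ± 6.68 against 77.2 ± 21.4). *Cxcl13*, an attractant of B cells, was called lower than in cluster 1 (12.4 ± 13.4 against 121.3 ± 43.2). In all, 6 of 25 genes were called higher and 2 lower than in cluster 7 (9.3% and 4% over all genes), and 2 higher and 8 lower than in cluster 1 (7.02% and 7.78% over all genes), so that the 2 genes of either lesser direction are near the share over all genes.

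Of 14 genes of fibroblast identity, 1 was called higher and 1 lower than in cluster 7 (9.3% and 4% over all genes), and none was called against cluster 1. Against cluster 2, 7 were called higher and 2 lower (15.2% and 9.99% over all genes), and against cluster 6, 7 higher and 1 lower (25.2% and 10.5%). The 7 higher ones were the same in both, among them the small proteoglycans *Dcn* and *Lum*. *Col1a1*, a chain of collagen I, had 1843 ± 402.6 in cluster 5, 2146 ± 142.1 in cluster 7 and 2041 ± 412.1 in cluster 1. Among 27 collagen genes, 3 were called higher and 1 lower than in cluster 7, near the share over all genes, and 6 higher and 7 lower than in cluster 1 (7.02% and 7.78% over all genes). *Col6a3* had 669 ± 86.4 in cluster 5 and was called higher than in cluster 1 (219.2 ± 23.3) but not against cluster 7 (690 ± 99.5). *Col14a1* (689 ± 136.5) lay between cluster 7 (1187 ± 138.7) and cluster 1 (280 ± 35.5) and was called higher than the latter, and *Col15a1* (72.96 ± 48.5) was called higher than in cluster 7 (24.9 ± 29.9) and lower than in cluster 1 (194.1 ± 110).

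Of 38 other matrix genes, 6 were called higher and 4 lower than in cluster 7 (9.3% and 4% over all genes). The 4 lower ones were *Fbn1* and *Mfap5* of the microfibrils, *Emilin2* and fibronectin, *Fn1*. *Fbn1* had 698, 895, 933 and 284.9 in cluster 5 against 1542, 2080 and 1911 in cluster 7, and *Fn1* had 534, 453.7, 650 and 93.3 against 1330, 1077 and 1705. The lowest value of both came from the Cspg4dsRED line, and the other lines also lay below all of cluster 7. *Fbln1*, of basement membranes and elastic fibres, went the other way with 2043 ± 488 against 925 ± 296.6, and *Podn*, a small proteoglycan, with 335.6 ± 167.8 against 79.6 ± 9.24. *Postn*, periostin, had 312.8 ± 84.97, a log2 fold change of -2.16 ± 0.23 from cluster 1 (1835 ± 204.3), and -0.97 ± 0.22 from cluster 7 (671 ± 103.7), just short of a call. Without the Cspg4dsRED line *Fbln1* and *Mfap5* were no longer called against cluster 7 (log2 fold changes 0.94 and -0.98). Of 28 matrix proteases and their inhibitors, 2 were called higher and 1 lower than in cluster 7, near the share over all genes, and 6 higher and 1 lower than in cluster 1 (7.02% and 7.78% over all genes). *Mmp3*, a secreted protease, was called higher than in cluster 7 with a wide spread (105.02, 7.33, 82.1 and 134.4 against at most 9.72), and its Acta2GFP value overlapped with cluster 7.

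Of 36 growth factor genes tested, 6 were called higher and 2 lower than in cluster 7 (9.3% and 4% over all genes), and 9 higher and 5 lower than in cluster 1 (7.02% and 7.78% over all genes). *Igfbp3*, which binds insulin-like growth factors, had 70.4 ± 41.8 in cluster 5, 22.9 ± 24.1 in cluster 7 and 1126 ± 71.4 in cluster 1. *Fgf10*, a mesenchymal growth factor for epithelium, had 12.5 ± 10.5 and was called lower than in cluster 1 (198.02 ± 80.7), and *Hgf* was likewise lower (3.35 ± 1.70 against 66.8 ± 38.7). *Igf1* had 168.2 ± 31.1 and was called higher than in cluster 1 (72.9 ± 10.6) and not against cluster 7 (100 ± 20.8), and the former call was lost without the Acta2GFP line (log2 fold change 0.97). Of 43 transcription factors, 6 were called higher and 2 lower than in cluster 7, near these shares, and 14 higher and 12 lower than in cluster 1. *Tcf21*, a mesenchymal regulator, had 93.1 ± 22.03 against 75.7 ± 28.4 in cluster 7 and 645 ± 52.1 in cluster 1. *Foxf2*, a target of hedgehog signals, was lower than in cluster 1 too (3.87 ± 2.08 against 42.7 ± 5.72), whereas *Osr2* was lower than in cluster 7 (37.7 ± 22.1 against 100 ± 31.01) and higher than in cluster 1 (1.42 ± 0.919). The call of *Osr2* against cluster 7 was lost without the Cspg4dsRED line (log2 fold change -0.92) or the PdgfraGFP line (-0.91). *Meox2* was called higher than in each of the 4 other clusters at a level of 13.5 ± 10.4.

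Among retinoid genes, *Aldh1a2*, which makes retinoic acid, had 24.1 ± 13.5 in cluster 5, was not called against cluster 7 (31.2 ± 27.99) and was called lower than in cluster 1 (105.4 ± 40.6). Of 16 genes tested, 3 were called higher and none lower than in cluster 7 (9.3% and 4% over all genes), and 2 higher and 4 lower than in cluster 1 (7.02% and 7.78% over all genes).

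Very few genes were called lower in cluster 5 than in all other fibroblast clusters, and at a level of at least 20 there were 5. *Slc6a6*, the taurine transporter (chromosome 6, 91684053 to 91759066), had 11.7, 17.7, 12.4 and 6.17 in cluster 5. It had 40.1, 52.5 and 48.7 in cluster 7 and 35.2, 31.2 and 14.2 in cluster 1, and means of 172.9 in cluster 6 and 232.5 ± 6.63 in cluster 2. *Fdps*, which makes farnesyl diphosphate for sterols and prenyl groups (chromosome 3, 89093588 to 89101959), had 12.3, 9.18, 6.05 and 4.38 in cluster 5. It had 25.4, 26.1 and 11.01 in cluster 7 and 30.9, 15.8 and 41.6 in cluster 1. *Gm43738* overlaps *Fdps* on the same strand, and their counts may be split. The call of *Gm43738* against cluster 7 was lost without the Acta2GFP line (log2 fold change -0.84) and with plates as samples (-1.18). Against cluster 1 it was lost without the PdgfraGFP line (-0.80), with 3 cells enough for a sum (-0.99) and with plates as samples (-0.99). *Exoc2*, a subunit of the exocyst, and *Spry2*, a feedback inhibitor of receptor tyrosine kinases, had smallest log2 fold changes of -1.10 ± 0.63 and -1.03 ± 0.73. Without the Cspg4dsRED line, which had the lowest level of *Slc6a6*, *Exoc2* and *Spry2*, the log2 fold changes against cluster 1 were -0.94, -0.72 and -0.86, so that none of the 3 was still called lowest. *Spry2* turned direction against cluster 7 with plates as samples (log2 fold change 0.41). *Fdps* lost its call against cluster 7 without PdgfrbGFP plate 2, where its size held (log2 fold change -1.36) but the lines no longer shared the direction.

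Within cluster 5, cells differed widely in the genes that set it apart. *Cd34* reached a level of 100 in 97.2% of the cells, against 58.1% for *Col8a1* and 65.7% for *Pdgfra*. *Gdf10* reached it in 39.8%, *Inmt* in 65.4%, *Stc2* in 44% and *Grem1* in 29.2%. *Ptgir* reached it in 18.6% of the cells (median level 1.25), *Dner* in 17.2% (0.813) and *Kcne4* in 10.8% (0.888), so most cells had little of these 3. In cluster 7 the shares of *Gdf10*, *Inmt*, *Stc2* and *Grem1* were 2.69%, 9.87%, 6.28% and 2.24% of the cells, and in cluster 1 they were 0.414%, 0.828%, 6.83% and 47.4%. Cells at or above this level were thus in the minority within cluster 5 for *Gdf10*, *Stc2* and *Grem1*. The quartiles of *Gdf10* were 1.27, 30.3 and 370.9, and those of *Grem1* 3.48, 14.1 and 237.8, so both ranged widely between cells. Any count of *Gdf10* was found in 78.6% of cluster 5 cells, and in 64.4% after thinning to 50000 counts, 1 cell being too shallow. Mural cells had counts of *Gdf10* as well, 26.8% of them as deposited and 7.19% thinned (median depth 221100), and 1.18% of them reached a level of 100. Whether these counts are background was not tested.

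**Figure D3:**
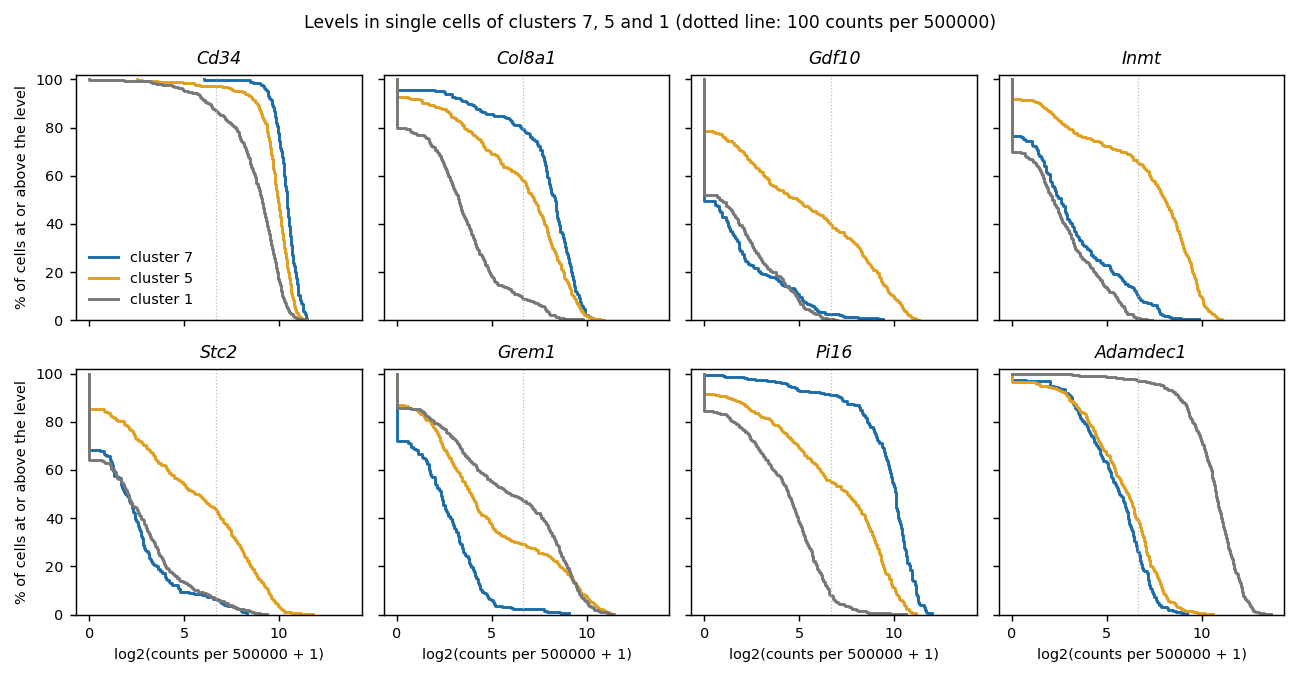
Share of cells (y axis, percent, from 0 to 100) at or above a given level (x axis, log2 of counts per 500000 plus 1, dotted line at 100) in clusters 7, 5 and 1 for 8 genes. At a level of 100, *Gdf10* was reached by 39.8% of cluster 5 cells against 2.69% of cluster 7 and 0.414% of cluster 1, whereas *Cd34* was reached by most cells of all 3 clusters.

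The plates differed in these shares too. Over the 5 plates with at least 30 cluster 5 cells, *Gdf10* reached a level of 100 in 24.1% to 60% of the cells, *Inmt* in 46.6% to 86.4%, *Grem1* in 19.1% to 45.7% and *Pi16* in 17.2% to 77.2%. Plate 1 of the PdgfraGFP line had the lowest shares of *Cd34*, *Col8a1*, *Pdgfra*, *Gdf10*, *Inmt*, *Stc2* and *Pi16* among these 5 plates. *Adamdec1* reached a level of 100 in 75.3% and 66.4% of the cells on PdgfrbGFP plates 1 and 2, and in 2.78% to 19.6% on the other 3. Over all plates, 38.8% of cluster 5 cells reached this level of *Adamdec1*, with a median of 69.5, against 25.4% of the mural cells, with a median of 15.98. How much of the level in cluster 5 is background was not tested.

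Correlations between cells, taken within each of these 5 plates, described how the genes were combined. They are means of Spearman's rank correlation over plates, across cells that share a plate and are not independent. *Gdf10* and *Inmt* were positively related on all 5 plates (mean 0.305, range 0.161 to 0.469). *Gdf10* and *Col8a1* were negatively related on all 5 (mean -0.291, -0.540 to -0.00146), and so were *Gdf10* and *Ackr4* (mean -0.287), whereas *Col8a1* and *Ackr4* were positively related on all 5 (mean 0.317). *Grem1* went with *Apoe* on all 5 plates (mean 0.367, 0.0904 to 0.575) and against *Pi16* on 4 of 5 (mean -0.249), and *Pi16* and *Apoe* were negatively related on all 5 (mean -0.305). *Stc2* went against *Gdf10* on all 5 plates (mean -0.147) and with *Ackr4* on all 5 (mean 0.264). *Gdf10* and *Grem1*, both called higher than in cluster 7, had no common direction (mean -0.0733, positive on 3 of 5 plates).

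Of 9391 genes ranked by their relation to *Col8a1* over the cells of these plates, the 10 most like it were *Aspn* (mean correlation 0.366), *Col3a1* (0.331), *Fndc1* (0.319), *Ackr4* (0.317), *Cilp* (0.304), *Fbn1* (0.295), *Tnfrsf11b* (0.294), *Tgfbi* (0.293), *Gm47302* (0.293) and *Cd55* (0.290). *Aspn*, *Col3a1*, *Fbn1* and *Tgfbi* are matrix genes. Each of the 10 was positively related on all 5 plates, the lowest single value being 0.102 for *Ackr4*. They were picked by their mean over these same plates, so the shared sign follows largely from that choice and adds no support. *Col8a1* itself was weakly related to sequencing depth (correlation 0.141).

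The reporter line was not used to draw the clusters, so differences between lines within cluster 5 can be tested. Counts of cluster 5 cells were summed per plate (4 plates of PdgfrbGFP, 2 of Acta2GFP, 2 of PdgfraGFP and 1 of Cspg4dsRED) and compared with edgeR's quasi-likelihood test and Benjamini-Hochberg adjustment over 17662 genes. None passed an adjusted p of 0.05 in either comparison with PdgfrbGFP (0% of genes called). At an unadjusted p under 0.05 were 2.72% of the genes for Acta2GFP and 6.27% for PdgfraGFP. DESeq2 called 0.203% and 2.44% of the genes to which it gave an adjusted p, and limma on scaled cells 0 genes and 1. Leaving out PdgfraGFP plate 1, after which that line was represented by the 6 cells of its plate 2, gave 1152 calls by edgeR (6.97%). That lone plate was assumed to vary like the plates of the other lines.

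*Pdgfra* in the cells of its own knock-in reporter was 176.1, against 262.5 in PdgfrbGFP cells, a log2 fold change of -0.49 ± 0.29 that did not pass the test (edgeR quasi-likelihood, adjusted p = 0.726). *Pdgfrb* had 226.6 in PdgfrbGFP and 85.98 in Acta2GFP cells, a log2 fold change of -1.24 ± 0.35 with an unadjusted p of 0.00482 and an adjusted p of 1 in the same test. By plate, *Gdf10* ranged from 66.01 on plate 3 to 534 on plate 2, both of PdgfrbGFP, with a median of 236.9 over 9 plates. *Inmt* ranged from 146.9 to 618 (median 332.3), *Grem1* from 107.96 to 444.2 (median 184.9) and *Pi16* from 95.96 to 614 (median 317.4). *Cd34* was steadier, from 654 to 1280 (median 1041). All 9 plates were above every line of cluster 7 for *Gdf10*, *Inmt* and *Grem1*.

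**Figure D4:**
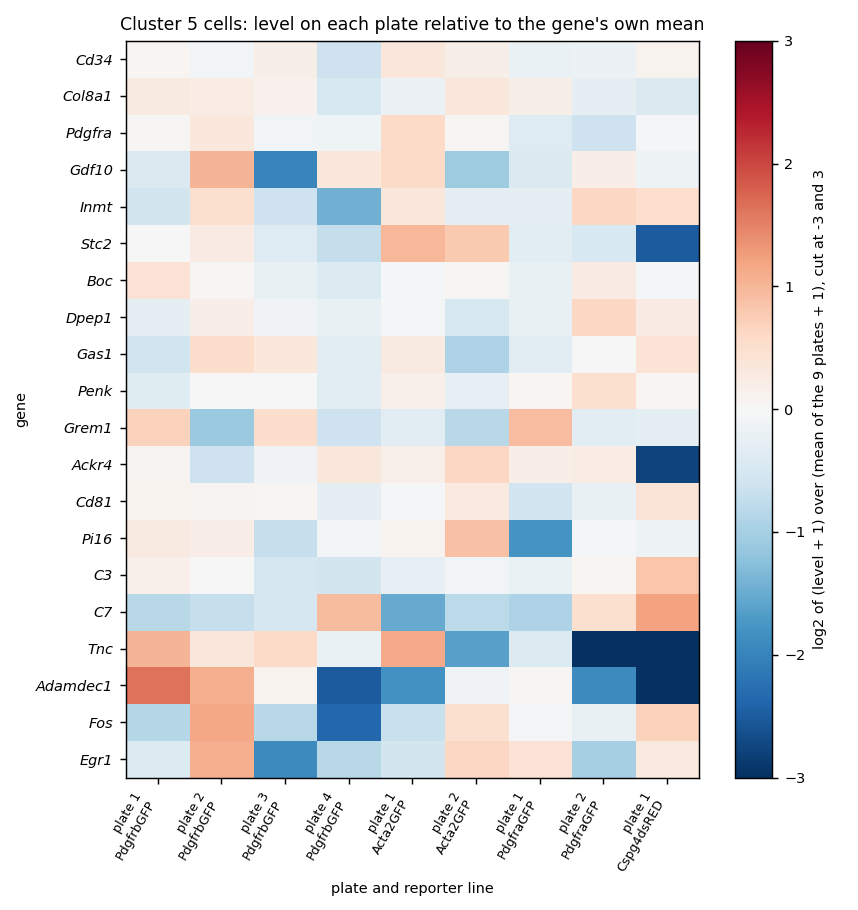
Level of 20 genes (rows) in the cluster 5 cells of each of 9 plates (columns), as log2 of the level over the gene's own mean of the 9 plates, each with 1 added, red above and blue below, with the scale cut at -3 and 3. *Cd34*, *Pdgfra* and *Col8a1* stay near their means on all plates, whereas *Adamdec1* and *Tnc* range from far below to above.

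Immediate early genes respond within minutes to growth factors and to stress, tissue dissociation included. Summed over 16 such genes, cluster 5 cells had levels of 3388, 11633, 2657 and 2431 on the PdgfrbGFP plates 1 to 4. They had 3164 and 6735 on the Acta2GFP plates 1 and 2, 5701 and 3831 on the PdgfraGFP plates 1 and 2, and 6065 on the Cspg4dsRED plate. PdgfrbGFP plate 2 was the highest, and it was also the highest plate of clusters 7 (8405) and 1 (8312). Within plates, the sum was higher in cluster 5 than in cluster 7 on all 7 plates with 5 or more cells of both, and higher than in cluster 1 on all 9.

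**Figure D5:**
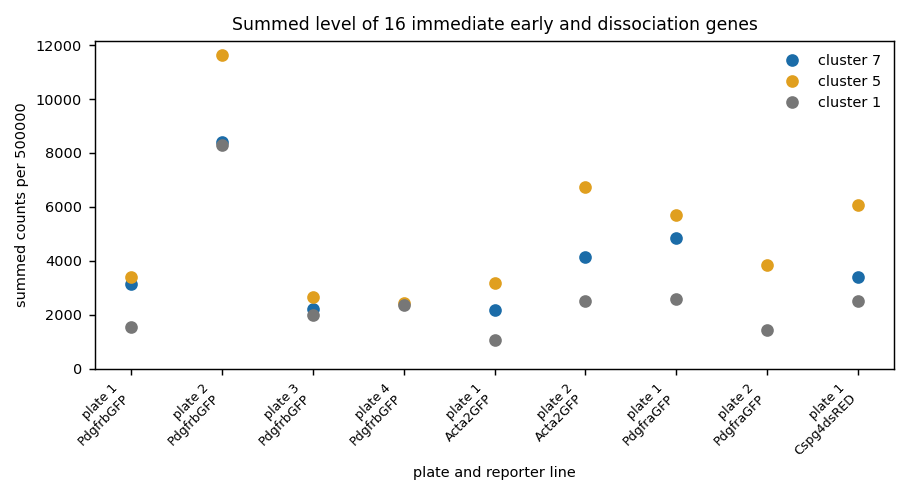
Summed level of 16 immediate early genes (y axis, counts per 500000, from 0) in the cells of clusters 7, 5 and 1 on each plate (x axis, grouped by reporter line). Cluster 5 lies above cluster 7 on 7 of 7 plates and above cluster 1 on 9 of 9, and PdgfrbGFP plate 2 is the highest for all 3 clusters.

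By gene, 2 of the 16, *Nr4a1* and *Btg2*, were called higher than in cluster 7 (9.3% over all genes), and 8 higher than in cluster 1 (7.02%), among them *Fos*, *Egr1* and *Dusp1*, with none lower in either. Without PdgfrbGFP plate 2 neither *Nr4a1* nor *Btg2* was called against cluster 7, although the log2 fold changes were 1.32 and 1.40, whereas that of *Nr4a1* was 0.56 without the Cspg4dsRED line, 0.54 with the line as a replicate block and 0.67 with plates as samples. Against cluster 6, 13 were called higher (25.2%) and none lower. *Fos* had 1011 ± 221.2 in cluster 5, 615 ± 53.4 in cluster 7 and 445.6 ± 219.3 in cluster 1, but 2174 ± 851 in cluster 2, where 12 of the 16 were called higher than in cluster 5 (9.99% over all genes). The part of dissociation in these levels, and of these levels in the other differences between clusters, was not tested. Of 12 cell cycle genes, among them *Mki67* with a level of 0.0794, none was called against cluster 7. *Ccnb1* and *Birc5* were called higher and *Top2a* lower than in cluster 1, *Mcm2* lower than in cluster 2, and *Ccnb1* and *Mcm2* higher and *Tyms* lower than in cluster 6.

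The share of ERCC spike-in reads in a cell, an amount added equally to every well, was tested over plates. No source used here says whether the spike-in counts entered the clustering, so its independence of the clusters was not shown. The median share in cluster 5 was 1.33%, against 1.04% in cluster 7 and 1.55% in cluster 1. Within plates, the log2 of the share was higher in cluster 5 than in cluster 7 by 0.40 ± 0.38 (SD, higher on 6 of 7 plates, exact permutation test by sign flips, two-sided, p = 0.03125, adjusted over 2 tests p = 0.03125). Against cluster 1 the difference was -0.24 ± 0.16 (higher on 1 of 9 plates, exact p = 0.00781, adjusted p = 0.0156). Both differences lost the threshold with the mean in place of the median, and the second also with at least 10 cells per plate (adjusted p = 0.0625 in each case). With at least 10 cells the first was 0.35 and higher on 5 of 5 plates, where the smallest p the test allows is 0.0625, so it could not pass. The first also lost the threshold when any of 6 plates was left out, with 0.27 without the Cspg4dsRED plate. With 6 plates the smallest p the first test allows is 0.03125.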

How the data were processed

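Single cells of mouse colon were sequenced with SmartSeq2 as single reads of 50 bases. The values used are raw read counts per gene and cell as deposited by the authors, who aligned reads with TopHat2 and counted them with featureCounts. They removed cells with few counts, few genes or very many genes and, where needed, with high shares of spike-in or mitochondrial reads. Cells that expressed neither *Pdgfra* nor *Pdgfrb*, and cells with clear signatures of other types such as endothelial or immune cells, were removed as well. The rest were clustered with pagoda2. The submitters' processing notes also name bcl2fastq, Bowtie, Bowtie2, Subread, GRCm38 and mm10. Counting is not stated to use strand, and no doublet caller was run here. The table holds 46517 genes, of which 46005 carry a symbol, and 92 ERCC spike-in rows (1.36% of all counts), which were left out of levels and fits. Annotation was GENCODE vM21.

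Cluster 5 held 425 cells (220, 128, 64 and 13 by line), cluster 7 223, cluster 1 483, cluster 2 131 and cluster 6 45, and 339 mural cells served for comparison. Cells were scaled to 500000 counts for levels. Raw counts were summed per cluster and line (at least 10 cells) for edgeR 4.0.16 (glmQLFit, TMM factors, filter on low counts), from which only fold changes were used, and per plate (at least 5 cells) for edgeR's quasi-likelihood test between lines, with a threshold of 0.05 on adjusted p. The rest used DESeq2 1.42.0 and limma 3.58.1 (log2 with a pseudocount of 1) in R 4.3.3, and scipy 1.17.1, pandas 2.3.3 and numpy 2.4.6 in Python 3.11.15, and fits were tested on simulated data. Members and gene lists were chosen with earlier results of these data known. Named genes are the 3 markers, members of the lists, the 5 leading called genes of each direction against clusters 7, 1 and 2, the 10 leading highest and 5 leading lowest genes (all at a level of at least 20), and the 10 genes most like *Col8a1*, and any other gene is said to be chosen after its values were seen. Reads carry no molecular identifiers, so the intervals given cover counting error only.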

Additional observations from a re-analysis of the deposited data

Results flagged for a closer look

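In cluster 5, the Cspg4dsRED line stood apart from the other 3 lines for 7 of 87 genes checked, its gap to the nearest line, as a part of the whole range, being above Dixon's 95% critical value for 4 values. Chance flags about 1 in 20 groups of this size, and the line had 13 cells on 1 plate. Its level was the lowest for *Col8a1* (156.6), *Pcolce2* (110.2) and *Fdft1* (7.03), which makes squalene. It was the highest for the complement genes *C3* (2573) and *C7* (357.9), the chemokine *Cxcl12* (757.3) and the growth factor *Fgf10* (28.17).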

How the results depend on the processing

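The alternatives are given as percentages of the genes tested in each, which numbered 18924 in the main comparison. Cluster 5 differed from clusters 7, 1, 2 and 6 in 13.3%, 14.8%, 25.2% and 35.6% of genes by the rule of fold and direction, with 1.05% highest and 0.074% lowest. With plates in place of lines as samples these shares were 3.21%, 2.98%, 13.5%, 11.3%, 0.133% and 0.0133% of 15015 genes. With 3 cells enough for a sum they were 8.88%, 9.34%, 0.488% and 0.0179% of 16787 genes for clusters 7 and 1, highest and lowest, and with limma on scaled cells 8.22%, 9.73% and 0.526% of 17689 genes for clusters 7 and 1 and highest. Higher and lower calls against cluster 7 were 1759 and 757, but 868 and 587 with limma, and those against cluster 1 were 1328 and 1472, but 638 and 1083 with limma and 911 and 657 with 3 cells enough. The next 2 alternatives were chosen after seeing the data, as were the levels without the Cspg4dsRED line and the list of sterol genes. At a level of at least 20 the shares of the 18924 genes were 2.79%, 3.20%, 8.82%, 10.98%, 0.190% and 0.0264% (36 and 5 genes highest and lowest), and with fold changes of at least 2 standard errors 4.35%, 5.68%, 14.9%, 18.9%, 0.301% and 0.0211%. Leaving out a line, which leaves fewer lines that must share a direction, gave 13.3% to 24.8%, 15.3% to 23.6%, 25.9% to 35.2%, 36.7% to 65.3%, 1.14% to 2.52% and 0.0587% to 0.384%. By line, the share against cluster 7 was 24.8% without Acta2GFP, 20.5% without PdgfraGFP and 23.9% without PdgfrbGFP, and that against cluster 1 was 22.7% without Acta2GFP and without PdgfraGFP. Against cluster 2 it was 35.2% without PdgfraGFP, and against cluster 6 it was 53.3% without Acta2GFP and 65.3% without PdgfraGFP. Highest genes made up 2.52% without Acta2GFP and 1.92% without PdgfraGFP, and lowest genes 0.384% without Acta2GFP, 0.283% without PdgfraGFP and 0.313% without PdgfrbGFP.

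With the line as a replicate block the shares were 13.8%, 16.1%, 26.4% and 37.01%, with 1.23% highest and 11 genes (0.0581%) lowest, of which 5 were shared with the fit without the block. Deviations of the same line in cluster 5 and in cluster 7, 1, 2 or 6 correlated at 0.0311 to 0.223, not above 0.1 in every pair, so the pairing of lines was not used in the main comparison. Of 2914 values of the named genes under the alternatives, 2697 kept direction and call and 1, *Spry2* against cluster 7, turned from -1.03 to 0.41 with plates as samples, and the rest lost the call. The levels of *Cd34*, *Col8a1* and *Pdgfra* moved by less than the spread between lines under each alternative.

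Between lines within cluster 5, where edgeR called 0 genes, DESeq2 called 0.203% of 13802 genes (28) for Acta2GFP and 2.44% of 14408 for PdgfraGFP, the fit with no filter on low counts 0.0568% and 0.0871% of 26415 (15 and 23), and limma 0 genes and 1 (0.00618%). Leaving out a plate gave 0% for Acta2GFP and 0% to 6.97% for PdgfraGFP, the latter being the 1152 genes called without PdgfraGFP plate 1, which left that line 1 plate of 6 cells, assumed to vary like those of the other lines. The log2 differences in spike-in share of 0.40 and -0.24 lost the threshold as means over cells (0.34 and -0.25), the second also with at least 10 cells per plate (-0.27), where the first (0.35 on 5 plates) could not pass, and ranged from 0.27 to 0.48 and from -0.28 to -0.21 with a plate left out. The causes of these changes were not tested. Depth limits the lowest levels, since 1 count in the median cell of cluster 5 is worth more than 1 count per 500000, and the 13 Cspg4dsRED cells are the shallowest.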

Other observations

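Some genes of sterol synthesis and uptake were called lower in cluster 5. *Fdps* and *Idi1* were among the 14 genes called lowest. The call of *Idi1* against cluster 7 was lost with the line as a replicate block (log2 fold change -0.99), with plates as samples (-0.71) and, where the fold kept its size, with DESeq2 (-1.39), with no filter on low counts (-1.38) and without PdgfrbGFP plate 2 (-1.31). That of *Fdps* was lost without this plate (-1.36) and with plates as samples (-1.60), where the fold kept its size. Against cluster 1, *Idi1* and *Fdps* lost their calls with 3 cells enough for a sum (-1.15 and -1.75) and with plates as samples (-0.58 and -1.53). *Sqle* and *Cyp51*, other sterol genes called lower than in cluster 1, lost that call under the same alternatives. The list of 22 sterol genes was chosen after these values were seen, so its counts are a description. None was called higher and 4 were called lower than in cluster 7 (9.3% and 4% over all genes), with a median log2 fold change of -0.73, and none higher and 10 lower than in cluster 1 (7.02% and 7.78% over all genes), with a median of -1.08, against 0.037 and -0.048 over all genes. Against cluster 6, 4 were called higher and 13 lower (25.2% and 10.5% over all genes). *Idi1*, which makes the isoprenoid unit, had 5.53 ± 4.22 in cluster 5, 11.7 in cluster 7 and 15.5 in cluster 1. *Fdft1*, which makes squalene, had 18.1 in cluster 5, 19.5 in cluster 7 and 43.01 in cluster 1. For this gene the value of the 13 Cspg4dsRED cells was far below that of the other lines, as given above.

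*Nr1h3* and *Abca1* were chosen after their values were seen. *Nr1h3*, a nuclear receptor for oxysterols, was called higher in cluster 5 than in each of the other 4 clusters, with 34.9 ± 12.5 against 9.71 in cluster 7 and 10.7 in cluster 1. The call against cluster 7 was lost without the PdgfraGFP line (log2 fold change 0.80) and, where the fold kept its size, without PdgfrbGFP plate 2 (1.27). That against cluster 1 was lost with 3 cells enough for a sum (0.67) and with plates as samples (0.97). With plates as samples the call against cluster 2 was lost too (2.00). *Abca1*, which exports cholesterol, had 51.9 in cluster 5, 38.8 in cluster 7 and 14.1 in cluster 1. Whether these levels are linked was not tested.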
